A study of Mus musculus with 12 samples.

Results

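The RNA levels of 10 integrin subunit genes were followed across the main dendritic cell subsets of the mouse spleen, before and after a short culture. The genes were Itgax, Itgam, Itgal, Itgae, Itga4, Itga6 and Itgav, which encode α subunits, and Itgb1, Itgb2 and Itgb7, which encode β subunits. A probe set (a group of oligonucleotide probes for 1 transcript) was taken where the platform annotation gave it exactly 1 gene symbol and that symbol was 1 of the 10. This found 17 probe sets, with all 10 genes represented, among the 12422 probe sets of the array that are not controls.

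Total RNA was measured on 12 oligonucleotide arrays. Splenic cells with high surface CD11c, the protein that Itgax encodes, were sorted into CD4+ cells, CD8+ cells and cells with neither antigen, called double negative (DN) here. Each subset was processed either directly after isolation (fresh) or after 2 h at 37 °C in culture medium (cultured), which gave 6 groups of 2 arrays, numbered by experiment as replicates 1 and 2. The labels name no agent beyond the medium and no genetic change of the mice. The strain, age and number of mice behind an array, and whether the 2 experiments used separate animals, are not stated in the labels. The p-values below thus take the spread between arrays as their yardstick, which may be technical only, and the number of arrays limits the precision. Because every group was sorted for high CD11c, a cell that had lost that protein could not enter a group at the sort. In bulk RNA, fewer cells of a type and less RNA per cell cannot be told apart.

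Integrins are adhesion receptors made of 1 α and 1 β chain that join the cytoskeleton to ligands on other cells or in the extracellular matrix, and signals from inside the cell switch them between a resting and an active shape. The β2 chain (Itgb2, CD18) pairs with αL (Itgal, CD11a), αM (Itgam, CD11b) and αX (Itgax, CD11c) to give the leukocyte integrins that bind ICAMs, complement fragments and fibrinogen. The β7 chain (Itgb7) pairs with αE (Itgae, CD103), a receptor of E-cadherin that marks CD8+ dendritic cells in the spleen, and with α4 (Itga4), which binds MAdCAM-1 and VCAM-1. The β1 chain (Itgb1, CD29) pairs with α4, with the laminin receptor chain α6 (Itga6) and with αv (Itgav, CD51), whose complexes bind vitronectin and other ligands and can release active TGF-β from its latent form.

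The promoters of members whose signal moved with culture are shown for context, since the transcript level is what the arrays read. They come from RefSeq (build GRCm38.p6) and are the 250 bases before the annotated gene start, 5′ to 3′ on the strand of the gene. RefSeq entries were at hand for 6 of the 10 genes, and Itgae, Itgal, Itgb2 and Itga6 are named only. Capitals mark matches, on either strand, to a PU.1-type ETS core (GAGGAA), an AP-1 site (TGANTCA), an Sp1 GC box (GGGCGG) or a TATA box (TATAAA). No matches overlapped in the windows shown. The Itgav window is chr2:83724147-83724396 on the plus strand, the Itgam window chr7:128062390-128062639 on the plus strand, the Itgax window chr7:128129300-128129549 on the plus strand and the Itgb7 window chr15:102231936-102232185 on the minus strand.
Itgav: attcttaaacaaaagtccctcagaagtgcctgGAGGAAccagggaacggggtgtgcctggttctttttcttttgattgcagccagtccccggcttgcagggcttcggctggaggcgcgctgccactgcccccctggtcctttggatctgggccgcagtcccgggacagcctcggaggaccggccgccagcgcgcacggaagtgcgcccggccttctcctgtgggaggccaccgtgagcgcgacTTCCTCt
Itgam: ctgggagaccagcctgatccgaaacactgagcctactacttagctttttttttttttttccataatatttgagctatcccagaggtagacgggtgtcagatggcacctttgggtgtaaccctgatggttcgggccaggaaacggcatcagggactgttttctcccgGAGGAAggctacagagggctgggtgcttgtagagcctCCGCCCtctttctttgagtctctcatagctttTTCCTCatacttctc
Itgax: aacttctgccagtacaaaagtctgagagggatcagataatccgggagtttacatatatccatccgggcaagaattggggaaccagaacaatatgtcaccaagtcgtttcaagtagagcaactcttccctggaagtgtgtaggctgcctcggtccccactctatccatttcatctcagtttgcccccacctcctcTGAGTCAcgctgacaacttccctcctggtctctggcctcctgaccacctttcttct
Itgb7: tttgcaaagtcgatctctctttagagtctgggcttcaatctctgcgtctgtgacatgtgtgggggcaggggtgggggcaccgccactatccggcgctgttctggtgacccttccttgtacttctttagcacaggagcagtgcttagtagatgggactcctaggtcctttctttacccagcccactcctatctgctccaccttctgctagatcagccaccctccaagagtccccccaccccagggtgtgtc
The Itgav window held 2 ETS cores, beginning 218 and 7 bases before the start, and the Itgam window held 2, at 84 and 15 bases, with 1 GC box at 47 bases. The Itgax window held 1 AP-1 match at 56 bases and the Itgb7 window held no match. Of 32851 promoter windows of the same length, 23.3% held the ETS core, 6.75% the AP-1 site, 32.7% the GC box and 12.4% the TATA box. A match describes letters only. Itgam, Itgax and Itgad, the last of which encodes another β2 partner, are consecutive protein-coding genes in the RefSeq order of chromosome 7, while Itgal lies elsewhere on it.

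Intensities are the deposited, globally scaled Average Difference values in arbitrary units, and levels of different probe sets are not compared with each other. A generalised log2 scale was used for differences, because values can lie below 0, and on it the change of a dim probe set above 0 is understated. The floor for a signal was 91.4, which is 2 times the typical size of the negative values. Differences were tested with limma over the 6159 probe sets that passed the floor on 2 or more arrays, and a probe set was called where the Benjamini-Hochberg adjusted p was under 0.05. In this filter 15 of the 17 integrin probe sets, from 9 of the 10 genes, were tested. The Itga6 probe set 95511_at was not, with intensities between -11.6 and 16.9, nor was 1 of the 3 Itga4 probe sets (102656_at), between 19.4 and 89.1. Some probe sets passed only through a group in which they were high, so that they had to differ. These were Itgam through the fresh CD4+ arrays, both Itgae probe sets through the fresh CD8+ arrays, Itgb7 162193_f_at through fresh arrays and Itgav 98366_at through cultured arrays.

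The arrays differed in ways that the groups do not explain. The trimmed mean intensity was 150.1 to 150.2 on every array, while the noise, taken from the values below 0, ran from 26.2 to 108 and was highest on cultured CD4+ replicate 1. The ratio of 3′ to 5′ signal of the Gapdh control, which rises with RNA degradation or incomplete labelling, was 2.55 on fresh CD8+ replicate 1, 1.97 on cultured CD4+ replicate 1 and 1.34 on cultured DN replicate 1, against 0.890 to 1.04 on the other 9. Rank correlations between the 2 arrays of a group ran from 0.745 to 0.940. The labels of fresh CD8+ replicate 1 conflict, since its description has CD4 where its title and source have CD8+. Its intensity was 1210.4 for Cd8a and 92.0 for Cd4, against 617.3 and 612.8 for Cd4 on the fresh CD4+ arrays, and it was used as CD8+. Of 8 measured T cell genes, 3 had a probe set above the floor on at least 2 arrays. The CD3 chain genes Cd3e, Cd3g and Cd3d were at 12.6 or less on every array, while Lat ran from 99.9 to 370.5 and Cd5 from -13.1 to 192.8. The list sum, over the brightest probe set of each gene with values below 0 taken as 0, was 272.8 to 372.3 in fresh CD4+, 159.1 to 343.8 in fresh CD8+ and 334.0 to 407.7 in fresh DN cells, and 329.7 to 707.6, 220.6 to 302.0 and 330.0 to 484.9 after culture. Its part in the results was not tested. Markers of CD8+ dendritic cells, a list that holds Cd8a and Itgae itself, summed to 19528.7 and 24524.8 on the fresh CD8+ arrays, against 4156.2 to 4449.1 on fresh CD4+ and 6447.7 to 6470.8 on fresh DN arrays.

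After culture Itgav rose in all 3 subsets, by 3.81-fold to 8.28-fold on its 2 brighter probe sets, and was the only member that did. Itgae, high in fresh CD8+ cells alone, fell there. Averaged over the subsets, Itgax, Itgb2 and Itgb7 fell. Itgam and Itgae were also called lower in the mean. However, they were above the floor on fresh CD4+ and fresh CD8+ arrays alone, respectively, through which they passed the filter. With values set to the floor the mean effect of Itgam was -0.15 and was not called. Itgal, Itga4 and Itgb1 did not pass the test in any comparison between subsets or states.

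Itgav was measured by 3 probe sets. On the fresh arrays probe set 104386_f_at stood at 214.4 and 266.8 in CD4+ cells, 337.3 and 227.2 in CD8+ cells and 265.1 and 295.6 in DN cells. On the cultured arrays it stood at 1532.7 and 1719.2 in CD4+ cells, 1258.9 and 897.0 in CD8+ cells and 1205.6 and 1097.4 in DN cells. All 6 cultured arrays lay above all 6 fresh arrays, with a gap between 337.3 and 897.0. The log2 difference, cultured minus fresh, was 2.75 ± 0.29 (SE) in CD4+ cells (limma, adjusted p = 0.000267), 1.93 ± 0.29 in CD8+ cells (adjusted p = 0.00284) and 2.03 ± 0.29 in DN cells (adjusted p = 0.00203). In linear terms the fitted rises were 6.73-fold, 3.81-fold and 4.08-fold. Within experiments 1 and 2 taken alone, the log2 differences were 2.82 and 2.68 in CD4+ cells, 1.89 and 1.97 in CD8+ cells and 2.18 and 1.88 in DN cells.

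The second probe set, 104385_i_at, gave the same picture on its own scale. Its fresh intensities were 96.1 and 96.9 in CD4+ cells, 164.5 and 115.9 in CD8+ cells and 124.0 and 130.5 in DN cells, all just above the floor. Its cultured intensities were 758.9 and 931.8, then 783.6 and 492.6, then 666.5 and 494.5 in the same order, again with no overlap. The log2 differences were 3.05 ± 0.33 in CD4+ cells (limma, adjusted p = 0.000290), 2.13 ± 0.33 in CD8+ cells (adjusted p = 0.0032) and 2.13 ± 0.33 in DN cells (adjusted p = 0.00316), which are 8.28-fold, 4.38-fold and 4.38-fold. Without cultured CD8+ replicate 1 the CD8+ value had an adjusted p of 0.05005. The other calls of both probe sets held under all alternatives tried.

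The third, 98366_at, was dim. Its fresh intensities lay between 15.2 and 22.1, all below the floor, and its cultured ones were 64.6 and 129.8 in CD4+ cells, 165.3 and 75.3 in CD8+ cells and 67.7 and 86.0 in DN cells. Of the 6 cultured arrays 2 were above the floor, 1 in CD4+ and 1 in CD8+ cells. By subset it was not called, with limma adjusted p of 0.0808 in CD4+ cells, 0.0734 in CD8+ cells (0.0498 with the replicate number as a block) and 0.146 in DN cells. The CD8+ value also passed without cultured CD4+ replicate 1 (0.0371) or 2 (0.0432). The CD4+ and CD8+ values passed too with eBayes without trend (0.039 and 0.0321) and with the 3 high-Gapdh-ratio arrays left out (0.038 and 0.0492). Averaged over subsets the log2 difference was 1.54 ± 0.32 (adjusted p = 0.00323), against 2.24 ± 0.17 for 104386_f_at (adjusted p = 5.78e-06) and 2.44 ± 0.19 for 104385_i_at (adjusted p = 6.87e-06). With values set to the floor instead of the log scale's offset, the mean effect of 98366_at was 0.23 with an adjusted p of 0.238. The suffix _f_ of 104386_f_at marks less specific probes, which can take up signal of related transcripts. Itgae 161730_f_at, Itgb7 162193_f_at and Itgb1 100123_f_at also carry it. The probe set 104385_i_at has another suffix, _i_, and Itgb1 100124_r_at has _r_. Of the Itgav probe sets only the dim 98366_at, which was called in no subset, has the plain _at.

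**Figure D1:**
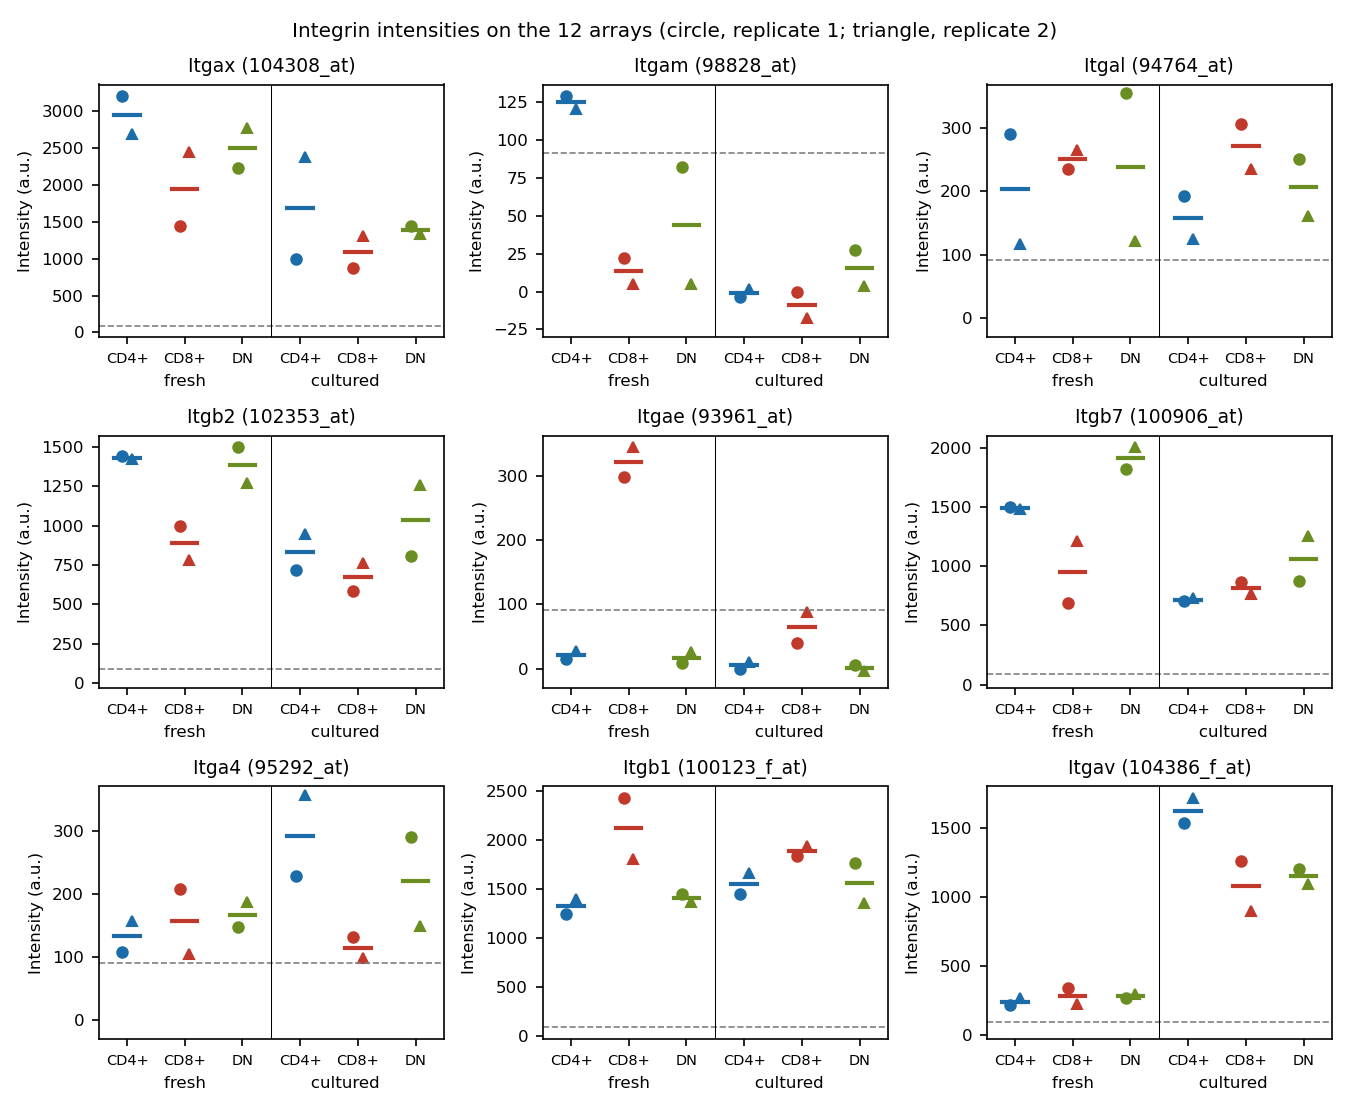
Intensity in arbitrary units of integrin probe sets on each of the 12 arrays, 1 panel per gene on its own linear axis, with the 6 groups along the horizontal axis (circle, replicate 1; triangle, replicate 2). Itgav stands at 214.4 to 337.3 on the fresh arrays and 897.0 to 1719.2 on the cultured ones, and Itgae is above the floor on the 2 fresh CD8+ arrays only.

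Whether the size of the Itgav rise differed between subsets was tested directly. The CD8+ effect of 104386_f_at minus its CD4+ effect was -0.82 ± 0.41 on the log2 scale (limma interaction, adjusted p = 0.593), which does not show a difference and does not show that the rises were alike. No integrin probe set was called in any of the 3 interaction contrasts, nor was any other of the 6159 (0% in each). Unadjusted p-values under 0.05 were found for 1, 0 and 0 integrin probe sets and for 525, 250 and 127 of all probe sets, for CD8+ against CD4+, CD8+ against DN and DN against CD4+. The zeros over all probe sets rest in part on cultured CD4+ replicate 2, without which 162, 2 and 72 probe sets were called, and with the 3 high-Gapdh-ratio arrays left out 7, 1 and 2 were. The remaining fits gave 0 to 3. Under both settings 0 integrin probe sets were called.

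Itgae, the αE chain, was the subset marker among the members. On fresh CD8+ arrays probe set 93961_at gave 298.1 and 344.7, against 14.7 and 28.0 on fresh CD4+ and 8.6 and 25.3 on fresh DN arrays. After culture it gave 40.7 and 87.7 in CD8+ cells, -0.2 and 11.1 in CD4+ cells and 5.4 and -4.0 in DN cells. The 2 fresh CD8+ arrays were thus the only 2 above the floor of 91.4, and all 6 cultured arrays were below it. In fresh cells the CD8+ level was at least 3.33-fold that of CD4+ cells, with a log2 difference of 3.17 ± 0.57 (limma, adjusted p = 0.0154), and at least 3.33-fold that of DN cells, with 3.30 ± 0.57 (adjusted p = 0.0156). Within experiments 1 and 2 the differences were 3.26 and 3.09 against CD4+ cells and 3.44 and 3.16 against DN cells. With 2 arrays a group, leaving out any array of the groups compared ended these calls. The adjusted p against CD4+ cells became 0.182 or 0.128 when replicate 1 or 2 of the CD4+ cells was omitted and 0.117 or 0.073 for those of the CD8+ cells, and against DN cells it became 0.116 or 0.0933 (CD8+ replicates 1 and 2) and 0.150 or 0.123 (DN replicates 1 and 2). An offset of 0.5 times its value also ended both calls, at 0.0588 and 0.0589.

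The other Itgae probe set, 161730_f_at, gave 224.1 and 179.5 on the fresh CD8+ arrays and values from -18.6 to 2.8 on the 4 other fresh arrays. Cultured CD8+ arrays gave 32.8 and 58.7, and the other cultured arrays -49.1 to 9.7. The same 2 arrays stood out as for 93961_at. Its fresh CD8+ level was at least 2.10-fold that of CD4+ cells, with a log2 difference of 3.65 ± 0.81 (limma, adjusted p = 0.0461). Against DN cells the difference was 3.33 ± 0.81, with an adjusted p of 0.0863 and of 0.047 with the replicate number as a block. The first of these lost its call on omitting replicate 1 or 2 of fresh CD4+ (0.321, 0.277), of fresh CD8+ (0.272, 0.0957), of fresh DN (0.0799, 0.0824) or of cultured CD8+ cells (0.0781, 0.0843) and at the offset of 0.5 times its value (0.0888). The second gained a call without cultured CD4+ replicate 1 (0.0492) and under 6 more settings (0.00447 to 0.0431). Values below 0 in the dim groups enter these log2 differences, so the "at least" folds are the safer reading.

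In CD8+ cells Itgae was lower after culture on both probe sets, and the fall was called for 93961_at only. Both probe sets had passed the filter through the fresh CD8+ arrays alone and had to differ from the other groups. The p-values of this fall are thus no separate evidence. For 93961_at the log2 difference was -2.22 ± 0.57 (limma, adjusted p = 0.0371), a fall of at least 3.33-fold, with -2.56 and -1.89 within experiments 1 and 2. For 161730_f_at it was -1.90 ± 0.81 (adjusted p = 0.182), with 179.5 on the lower fresh array and 58.7 on the higher cultured array, and it was called with values set to the floor (0.00229) or only the groups compared (0.0458). The call for 93961_at ended on omitting replicate 1 or 2 of fresh CD4+ (0.0686, 0.0747), of fresh CD8+ (0.128, 0.149), of fresh DN (0.0561, 0.0605) or of cultured CD8+ cells (0.268, 0.079), and at the offset of 0.5 times its value (0.113). After culture the CD8+ level was no longer called against CD4+ cells (log2 difference 1.42 ± 0.57, adjusted p = 0.268) or DN cells (1.57 ± 0.57, adjusted p = 0.317), with every cultured array below the floor. The drop in CD8+ cells minus that in CD4+ cells was -1.75 ± 0.81 (limma interaction, adjusted p = 0.589), and minus that in DN cells -1.73 ± 0.81 (adjusted p = 0.998).

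Averaged over the 3 subsets the culture effect of 93961_at was -1.07 ± 0.33 (limma, adjusted p = 0.0258), although only the fresh CD8+ arrays were above the floor. It ended on omitting replicate 2 of fresh CD4+ (0.0832), of fresh CD8+ (0.0761) or of fresh DN cells (0.0744), or replicate 1 of cultured CD8+ cells (0.0752). For 161730_f_at the mean was -0.62 ± 0.47 (adjusted p = 0.303, and 0.0113 with values set to the floor).

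Between fresh subsets, Itgae was the only member called. In fresh CD8+ against CD4+ cells 2 of 15 integrin probe sets were called, both of Itgae, where 1.98% of all tested probe sets were. In fresh CD8+ against DN cells 1 of 15 was called against a background of 1.43%. In fresh DN against CD4+ cells 0 of 15 were called, as were 0% of all probe sets, and at an unadjusted p under 0.05 the counts were 0 of 15 and 81 of all. Between cultured subsets limma called 0 of 15 in each comparison, against backgrounds of 2.29% for CD8+ against CD4+, 1.3% for CD8+ against DN and 0% for DN against CD4+, with 2, 1 and 0 integrin probe sets at an unadjusted p under 0.05. Since both Itgae probe sets passed the filter through the high group alone, their counts describe this gene and no more.

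**Figure D2:**
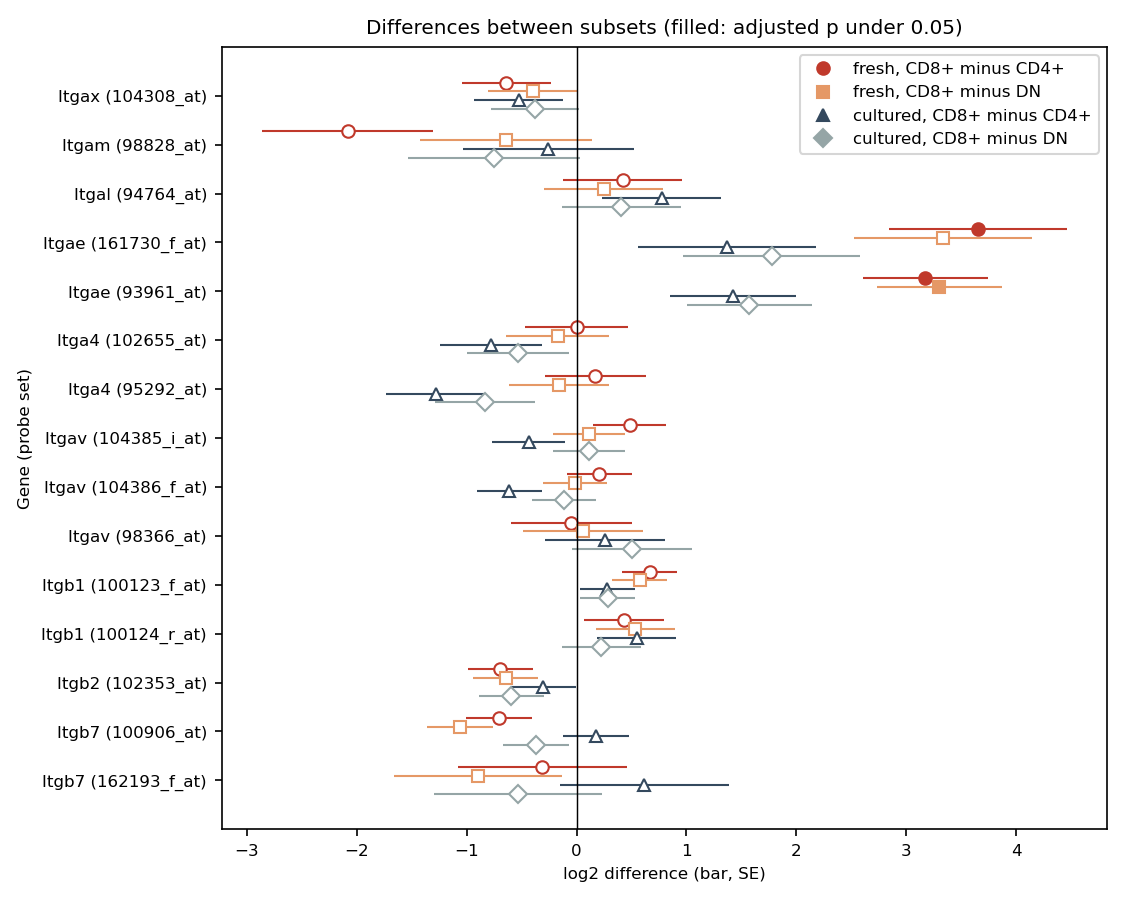
Log2 differences between subsets (horizontal axis, bars are standard errors) for each tested integrin probe set (vertical axis), in fresh and cultured cells, with filled symbols where the adjusted p was under 0.05. The filled symbols belong to Itgae, at 3.17 and 3.65 for fresh CD8+ minus CD4+ and 3.30 for fresh CD8+ minus DN.

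Among the β2 family, Itgax (αX, CD11c) was high in every group. Its fresh intensities were 3209.8 and 2686.8 in CD4+ cells, 1449.9 and 2454.1 in CD8+ cells and 2236.1 and 2770.2 in DN cells. Its cultured intensities were 998.9 and 2374.4 in CD4+ cells, 874.5 and 1308.7 in CD8+ cells and 1447.5 and 1336.9 in DN cells. Of the 6 cultured arrays, 5 lay below every fresh array, and cultured CD4+ replicate 2 lay among the fresh ones. The mean culture effect was -0.86 ± 0.23 on the log2 scale (limma, adjusted p = 0.014), a 1.82-fold lower level, and it held under all 21 fits, with adjusted p from 0.00127 to 0.0485. By subset it was not called: -0.93 ± 0.40 in CD4+ cells (adjusted p = 0.125), -0.82 ± 0.40 in CD8+ cells (0.252) and -0.84 ± 0.40 in DN cells (0.212). Experiments 1 and 2 gave -1.68 and -0.18 in CD4+ cells, -0.73 and -0.91 in CD8+ cells and -0.63 and -1.05 in DN cells, and without cultured CD4+ replicate 2 the CD4+ effect was called (adjusted p = 0.0121). The CD8+ effect was called with the 3 high-Gapdh-ratio arrays left out (0.0225), and the DN effect with only the groups compared (0.034). Group means ran in the order CD4+, DN, CD8+ in both states, but no neighbours in that order differed by the test. Single arrays did not all follow it, since DN lay above CD4+ cells in fresh experiment 2 and in cultured experiment 1. Fresh CD8+ minus CD4+ was -0.64 ± 0.40 (limma, adjusted p = 0.694).

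Itgam (αM, CD11b) was at the edge of detection. It gave 129.1 and 120.5 on the fresh CD4+ arrays, 22.1 and 4.8 on fresh CD8+ arrays and 82.0 and 5.1 on fresh DN arrays. After culture no array passed 27.4, with -3.5 and 2.0 in CD4+ cells, -0.5 and -17.6 in CD8+ cells and 27.4 and 3.9 in DN cells. The signal was thus above the floor on the 2 fresh CD4+ arrays only. In CD4+ cells culture lowered it by at least 1.33-fold, with a log2 difference of -2.52 ± 0.78 (limma, adjusted p = 0.0453) and with -2.65 and -2.39 within experiments 1 and 2. This call ended on omitting replicate 1 or 2 of fresh CD4+ (0.208, 0.220), of cultured CD8+ (0.0576, 0.0557) or of cultured DN cells (0.0546, 0.0535), or replicate 1 of fresh DN (0.0571) or of cultured CD4+ cells (0.107). It also ended at the offset of 0.5 times its value (0.0633), with only the groups compared (0.0851) and with the 3 high-Gapdh-ratio arrays left out (0.0591), which leaves it in 10 of 21 fits.

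The difference of Itgam between fresh CD8+ and CD4+ cells was -2.08 ± 0.78 (limma, adjusted p = 0.300). Averaged over subsets its culture effect was -1.26 ± 0.45 (adjusted p = 0.0448), a call kept in 7 of 20 fits, with adjusted p from 0.0114 to 0.145. It ended on omitting replicate 1 or 2 of fresh CD4+ (0.121, 0.120), of fresh CD8+ (0.0756, 0.057), of cultured CD8+ (0.0648, 0.0855) or of cultured DN cells (0.060, 0.0933), or replicate 1 of fresh DN (0.145) or of cultured CD4+ cells (0.0504), at the offset of 0.5 times its value (0.0521), with values set to the floor (0.0964) and with the 3 high-Gapdh-ratio arrays left out (0.0502).

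Macrophages also carry CD11b, and the macrophage marker Adgre1 (F4/80) was highest in fresh CD4+ cells too. It gave 386.2 and 664.2 on the fresh CD4+ arrays, 146.3 and 182.6 on fresh DN arrays and 13.3 and 50.5 on fresh CD8+ arrays, and after culture 13.3 and 187.3 in CD4+, 40.4 and 85.9 in DN and -5.7 and -31.3 in CD8+ cells. Of the 14 measured macrophage markers 10 had a probe set above the floor on at least 2 arrays, and the summed intensity of all 14 was 5245.7 to 5627.4 in fresh CD4+, 2688.6 to 3488.0 in fresh DN and 3485.7 to 4850.7 in fresh CD8+ cells. After culture the sum was 3075.1 to 6089.4 in CD4+, 2723.6 to 3956.1 in DN and 5344.4 to 10130.5 in CD8+ cells. Hmox1, an enzyme of heme breakdown, reached 7278.6 and Spic 1247.1 in these cultured sums, against 1283.1 and 120.8 at most when fresh. In CD4+ cells Csf1r gave 822.5 and 643.1 fresh and 323.5 and 182.8 cultured, C1qa 302.3 and 251.8 against -2.7 and 74.4, C1qc 458.7 and 411.6 against -227.0 and -13.4, and Lyz2 955.0 and 901.5 against 329.4 and 387.3. These 4 genes, Adgre1 and Cd68 (1782.2 and 1604.0 against 339.4 and 1303.7) were lower on both cultured CD4+ arrays, as Itgam was. Spic (22.6 and 23.3 against 601.2 and 1247.1) and Hmox1 (633.2 and 552.3 against 1011.6 and 2555.3) were higher. C1qb (117.7 and 52.2 against 327.1 and 93.4) and Vcam1 (73.2 and 79.0 against 94.6 and 24.8) overlapped. Siglec1, Marco, Mrc1 and Cd5l were not above the floor on 2 or more arrays. On the fresh CD8+ arrays Csf1r gave 455.1 and 305.8, C1qa 130.4 and 241.1, C1qc 74.9 and 494.7 and Lyz2 923.5 and 773.0. The part of macrophages in the Itgam values was not tested.

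Itgal (αL, CD11a) passed no test. Its fresh intensities were 291.1 and 117.2 in CD4+ cells, 236.2 and 265.5 in CD8+ cells and 355.7 and 122.5 in DN cells, and its cultured ones 192.5 and 124.4, then 307.0 and 235.6, then 251.1 and 161.7. The states overlapped over most of their ranges. The mean culture effect was -0.07 ± 0.31 (limma, adjusted p = 0.871).

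The shared β2 chain, Itgb2 (CD18), gave 1439.9 and 1419.1 in fresh CD4+, 998.4 and 780.9 in fresh CD8+ and 1500.2 and 1272.7 in fresh DN cells. In cultured cells it gave 717.2 and 947.1, then 583.0 and 765.2, then 807.0 and 1257.9. Of the 6 cultured arrays, 3 lay below all fresh arrays, and the others overlapped them. Averaged over subsets it fell by 0.55 ± 0.17 on the log2 scale, which is 1.46-fold (limma, adjusted p = 0.0267). By subset it was not called, and experiment 1 gave -1.0, -0.77 and -0.89 in CD4+, CD8+ and DN cells where experiment 2 gave -0.58, -0.03 and -0.02. The mean call ended on omitting replicate 1 or 2 of fresh CD4+ cells (0.0631, 0.0666), or replicate 1 of fresh DN (0.0676), of cultured CD4+ (0.0533), of cultured CD8+ (0.0797) or of cultured DN cells (0.0791). It also ended, at 0.130 and with a log2 difference of -0.32, when the 3 high-Gapdh-ratio arrays, 2 of which are cultured arrays of experiment 1, were left out. Without cultured CD4+ replicate 2 the CD4+ effect was called (0.0474).

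The β7 chain, Itgb7, fell with culture in CD4+ cells. Probe set 100906_at gave 1502.0 and 1486.4 in fresh CD4+, 689.5 and 1218.2 in fresh CD8+ and 1823.7 and 2011.9 in fresh DN cells. In cultured cells it gave 705.3 and 731.6 in CD4+, 864.5 and 763.8 in CD8+ and 877.1 and 1253.9 in DN cells. In CD4+ cells and in DN cells the states did not overlap, whereas in CD8+ cells the cultured values lay between the fresh ones. The culture effect was -1.06 ± 0.30 in CD4+ cells (limma, adjusted p = 0.0339), a 2.08-fold fall, with -1.09 and -1.02 in experiments 1 and 2. It was -0.87 ± 0.30 in DN cells (adjusted p = 0.0931), with -1.06 and -0.68, and -0.17 ± 0.30 in CD8+ cells (adjusted p = 0.781), with 0.33 and -0.67. The CD4+ call ended on omitting replicate 1 or 2 of fresh CD4+ (0.145, 0.164), of fresh DN (0.0539, 0.0546) or of cultured CD8+ cells (0.0525, 0.0526), or replicate 1 of cultured CD4+ cells (0.108). It also ended with no filter (0.0598), eBayes without trend (0.0617) and only the groups compared (0.0744), which leaves it in 12 of 22 fits. The DN effect gained a call on omitting replicate 1 or 2 of fresh CD8+ cells (0.0436, 0.0439) and with only the groups compared (0.0443). The mean effect, -0.70 ± 0.17 (adjusted p = 0.00933), held in all 21 fits.

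B cells also carry β7, and of 9 measured B cell markers 8 had a probe set above the floor on at least 2 arrays. The summed intensity of all 9, in which Ighm was the largest term, was 4417.5 to 5057.4 in CD4+, 4308.7 to 4721.1 in CD8+ and 2625.2 to 3372.5 in DN cells when fresh, and 1177.5 to 3193.0, 1816.2 to 4164.7 and 1230.3 to 2828.9 after culture. The B cell receptor chain Cd79b ran from 121.5 to 262.5 on fresh and 51.9 to 172.4 on cultured arrays, its partner Cd79a from 27.4 to 79.0 and 5.5 to 190.3, and Ms4a1 (CD20) from 174.3 to 695.7 and 144.9 to 413.1. Other markers ran higher after culture, with Pax5 at 107.8 to 199.0 on fresh and 187.3 to 479.3 on cultured arrays. Blnk ran from 30.2 to 152.5 and 74.2 to 383.1, and Fcer2a from 15.2 to 196.2 and 14.7 to 202.9. Cd22 gave 465.6 to 862.8 in fresh CD4+ and DN cells, 14.8 and -2.8 in fresh CD8+ cells and -106.3 to -25.5 after culture. Cr2 stayed between -3.4 and 25.8. The part of B cells in the Itgb7 values was not tested.

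In fresh cells Itgb7 was lowest in CD8+ cells on both arrays, and CD8+ minus DN was -1.06 ± 0.30 (limma, adjusted p = 0.166), which passed only without fresh CD8+ replicate 2 (0.0394). The fainter Itgb7 probe set 162193_f_at gave 116.9 and 124.7, then 127.2 and 70.6, then 148.8 and 229.6 in fresh CD4+, CD8+ and DN cells, and -29.2 and 41.7, then 17.3 and 34.7, then 8.8 and 110.3 in cultured cells. Of the cultured arrays only DN replicate 2 was above the floor, and of the fresh arrays all but CD8+ replicate 2 were. Its mean culture effect was -1.80 ± 0.44 (adjusted p = 0.00863), also kept in all 21 fits. In CD4+ cells alone its effect was -2.30 ± 0.77, with an adjusted p of 0.059 and of 0.0264 with the replicate number as a block. That value also passed without cultured CD4+ replicate 2 (0.00942), cultured DN replicate 1 (0.0373) or cultured DN replicate 2 (0.0419).

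The remaining members, Itga4 and Itgb1, were not called. Itga4 (α4) probe set 95292_at gave 108.7 and 158.4 in fresh CD4+, 209.1 and 105.1 in fresh CD8+ and 148.4 and 187.4 in fresh DN cells. After culture it gave 228.5 and 358.5, then 132.6 and 98.4, then 291.3 and 150.1. The 2 cultured CD4+ arrays lay above all fresh arrays, while the cultured CD8+ arrays stayed in or below the fresh range. The log2 difference with culture was 1.09 ± 0.46 in CD4+ cells (limma, adjusted p = 0.114, and 0.0291 with the 3 high-Gapdh-ratio arrays left out) and -0.36 ± 0.46 in CD8+ cells (adjusted p = 0.692), and the difference of the 2 effects was -1.45 ± 0.64 (adjusted p = 0.586). Cultured CD8+ minus cultured CD4+ was -1.28 ± 0.46 (adjusted p = 0.209), and 0.0429 with the 3 high-Gapdh-ratio arrays left out.

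A second Itga4 probe set, 102655_at, gave 95.3 to 130.2 on the fresh arrays. On the cultured ones it gave 127.1 and 261.2 in CD4+, 118.4 and 90.3 in CD8+ and 232.7 and 99.8 in DN cells. Only cultured CD4+ replicate 2 and cultured DN replicate 1 rose clear of the fresh range. The mean effect was 0.29 ± 0.27 (limma, adjusted p = 0.408), and 0.35 ± 0.26 for 95292_at (adjusted p = 0.303).

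Itgb1 (β1) passed no test on either of its probe sets. Probe set 100123_f_at gave 1250.6 and 1398.5 in fresh CD4+, 2432.1 and 1810.0 in fresh CD8+ and 1453.7 and 1367.1 in fresh DN cells, and 1450.1 and 1663.9, then 1840.2 and 1936.6, then 1770.9 and 1360.4 in cultured cells. The CD8+ arrays were the highest in each state, and fresh CD8+ minus fresh CD4+ was 0.67 ± 0.25 (limma, adjusted p = 0.300). Probe set 100124_r_at gave 499.4 and 565.0, then 662.5 and 776.0, then 538.1 and 454.7 in fresh cells, and 330.2 and 535.8, then 697.7 and 542.1, then 736.0 and 375.2 in cultured cells. Fresh CD8+ arrays were again above the other fresh ones, which the cultured arrays did not repeat. The mean culture effects were 0.07 ± 0.14 (adjusted p = 0.705) and -0.16 ± 0.21 (adjusted p = 0.567).

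Counting calls, culture changed 4 of 15 integrin probe sets in CD4+ cells, against 18.4% of all tested probe sets, with 2 higher (background 7.53%) and 2 lower (10.9%). In CD8+ cells it changed 3 of 15, against 8.13%, with 2 higher (4.01%) and 1 lower (4.12%). In DN cells it changed 2 of 15, against 9.9%, both higher (4.21%). Averaged over the 3 subsets it changed 9 of 15, against 39.3%, of which 3 were higher (all Itgav, background 17%) and 6 lower (5 genes, background 22.3%). With the 3 high-Gapdh-ratio arrays left out, the counts were 5, 5, 2 and 7 of 15 in the same order, against 20.2%, 16.1%, 13.2% and 42.9% of all tested probe sets. The median mean culture effect was -0.16 over the 15 integrin probe sets and -0.02 over all 6159. The 3 subset effects enter the mean, so the 4 counts are not separate evidence. The mean count also holds Itgam, Itgae 93961_at, Itgb7 162193_f_at and Itgav 98366_at. These passed the filter through arrays on which they were high, so they had to differ. Itgam is in the CD4+ count too, and Itgae in the CD8+ count. The counts thus describe single genes and are no evidence on the integrins as a set.

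**Figure D3:**
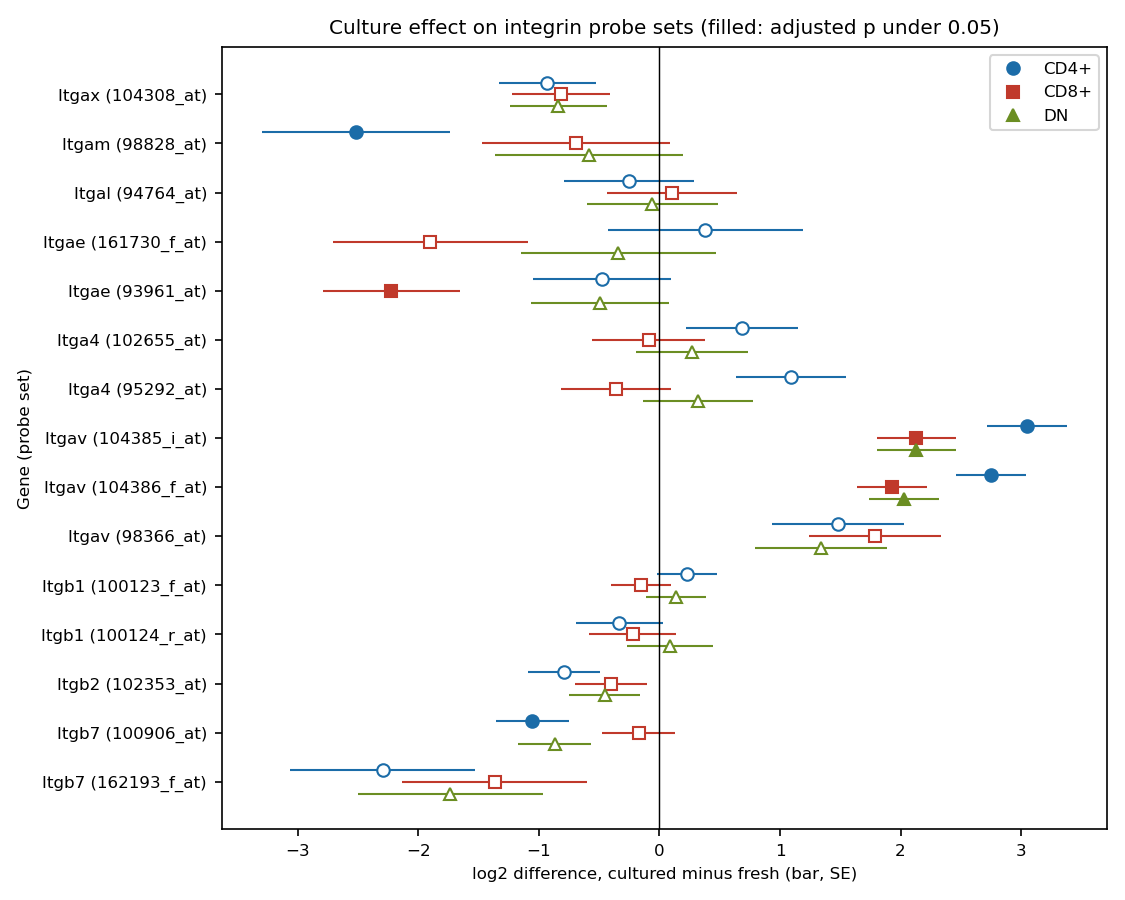
Log2 difference cultured minus fresh (horizontal axis, bars are standard errors) in each subset for each tested integrin probe set (vertical axis), filled where the adjusted p was under 0.05. The Itgav probe sets 104386_f_at and 104385_i_at lie between 1.93 and 3.05 in all 3 subsets, while Itgal and Itgb1 have no filled symbol.

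Genes that work with the integrins were counted from 4 lists, each gene by its brightest tested probe set. Their counts for the mean culture effect stand beside the 39.3% of all tested probe sets that were called, 17% higher and 22.3% lower. Of 18 other integrin subunits, 9 were on the array and 2 were tested. Itgb5, a β partner of αv, was higher after culture, at 22.8 to 73.7 on fresh and 78.3 to 155.4 on cultured arrays, with a mean effect of 1.13 ± 0.30 (limma, adjusted p = 0.012). All its fresh values were below the floor, so it passed the filter through the cultured arrays and had to differ, and its call was lost when values were set to the floor (0.171). Itgb3, another β partner of αv, lay between -5.0 and 37.0 on all arrays and was not tested, and the α3 gene Itga3 (15.8 to 215.4) was not called.

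Among 30 integrin ligands, 25 were measured and 8 tested, of which 5 were called after culture, 3 higher and 2 lower, with a median of -0.06. Tgfb1, whose latent protein αv integrins bind, gave 674.8 to 1200.2 on fresh and 359.9 to 548.6 on cultured arrays, with no overlap, and its mean effect was -0.97 ± 0.18 (limma, adjusted p = 0.00173). Icam1, a ligand of the β2 integrins, gave 497.3 to 750.1 on fresh and 693.1 to 1890.7 on cultured arrays. Its mean effect was 0.89 ± 0.18 (adjusted p = 0.00282), and only cultured CD4+ replicate 1 lay within the fresh range. Cdh1 (E-cadherin), the ligand of αEβ7, gave 50.7 to 139.2 and 132.1 to 211.4, with 1.00 ± 0.27 (limma, adjusted p = 0.0136). Of its fresh values only 139.2, on fresh CD8+ replicate 1, was above the floor, so it passed the filter through cultured arrays. Madcam1, a ligand of α4β7, gave 66.0 to 219.5 and 193.4 to 555.3, with 0.98 ± 0.31 (adjusted p = 0.0272), a call kept in 12 of 21 fits. That call ended on omitting replicate 1 or 2 of cultured CD8+ (0.0541, 0.0656) or of cultured DN cells (0.0593, 0.0514), replicate 1 of fresh CD4+ (0.0747) or of cultured CD4+ cells (0.0527), or replicate 2 of fresh CD8+ (0.0643) or of fresh DN cells (0.0849), and with the 3 high-Gapdh-ratio arrays left out (0.0541).

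Of 51 activators and cytoplasmic partners, 37 were measured and 32 tested, with 6 higher and 9 lower after culture and a median of -0.37. Rassf5 (RAPL), which carries the Rap1 signal to αLβ2, gave 783.5 to 1340.0 on fresh and 167.9 to 422.0 on cultured arrays. Its mean effect was -1.92 ± 0.17 (limma, adjusted p = 1.7e-05). Sipa1, which switches Rap1 off, gave 229.9 to 404.5 on fresh arrays and -28.2 to 103.4 on cultured ones. Its mean effect was -2.91 ± 0.44 (limma, adjusted p = 0.000558). Only 1 cultured array was above the floor, so Sipa1 passed the filter through fresh arrays. The size of the effect leans on values below the floor and ran from -3.49 to -1.82 over the other fits. Evl, an actin-binding protein of the Ena/VASP family, gave 444.9 to 781.1 and 73.0 to 254.5, with -1.96 ± 0.21 (adjusted p = 5.0e-05). Cytip, which binds cytohesin-1, a regulator of β2 adhesion, rose from 2998.4 to 4697.9 on fresh arrays to 10490.8 to 14733.5 on cultured ones, with 1.58 ± 0.14 (adjusted p = 1.8e-05). For these 4 genes no cultured array overlapped a fresh one, and the mean effect held in all 21 fits. They were named for the lowest adjusted p of their list, which favours both traits, so neither is further evidence. Probe sets disagreed for Itgb1bp1, where another probe set was called with the opposite sign, and for Tln1 (talin), where the brightest was not called and 2 others were lower.

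Of 19 membrane proteins that associate with integrins, 16 were measured and 14 tested, with 5 higher and 2 lower after culture and a median of 0.56. The tetraspanin Cd9 gave 501.1 to 1173.2 on fresh and 1649.6 to 3024.8 on cultured arrays, with 1.55 ± 0.15 (limma, adjusted p = 3.5e-05). Slc3a2 (CD98 heavy chain), which binds β1 and β3 tails, gave 839.1 to 1318.6 and 2054.3 to 3212.3, with 1.40 ± 0.15 (adjusted p = 4.7e-05). The tetraspanin Cd63 gave 75.2 to 206.9 and 284.7 to 1190.8, with 2.16 ± 0.26 (adjusted p = 0.00013). These 3 mean effects also held in all 21 fits with no overlap of the states. The 3 genes were likewise named for a low adjusted p, which favours both traits.

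Cd81 differed by subset. It gave 745.9 and 1668.8 in fresh CD8+ cells and 3213.8 and 3281.5 after culture, against 164.3 to 472.0 on the 8 arrays of the other subsets. Every CD8+ array lay above every other array. Cultured CD8+ minus cultured CD4+ was 3.96 ± 0.40 (limma, adjusted p = 0.000738), and the mean culture effect was 0.14 ± 0.23 (adjusted p = 0.656). In CD8+ cells it rose with culture by 1.54 ± 0.40 on the log2 scale (adjusted p = 0.0383), a call kept in 11 of 22 fits. That call ended on omitting replicate 1 or 2 of fresh CD4+ (0.0623, 0.0625), of fresh DN (0.0604, 0.0623) or of cultured CD8+ cells (0.194, 0.156), or replicate 1 of fresh CD8+ cells (0.193), and under 4 other settings (0.0600 to 0.0977). Between fresh subsets, the 4 lists with 2, 8, 32 and 14 tested genes held 1 call for CD8+ against CD4+, that of Emb. The share of all tested probe sets was 1.98%. For CD8+ against DN cells Emb and Cd81 were called, beside 1.43% of all. For DN against CD4+ cells no list gene was called, beside 0% of all. These calls describe single genes and not the lists. Emb, an immunoglobulin-family adhesion protein, was lower in fresh CD8+ cells (82.1 and 63.5) than in CD4+ (343.9 and 408.5) and DN cells (311.1 and 417.6), at -2.25 ± 0.42 (limma, adjusted p = 0.0183) and -2.20 ± 0.42 (adjusted p = 0.0264). The first ended on omitting replicate 1 or 2 of the CD4+ (0.136, 0.208) or of the CD8+ cells (0.0723, 0.0638), the second on omitting those of the CD4+ (0.0564, 0.0590), of the CD8+ (0.0988, 0.0965) or of the DN cells (0.137, 0.300). Cd81 was higher in fresh CD8+ than in fresh DN cells, at 2.19 ± 0.40 (adjusted p = 0.0197), a call that ended on omitting replicate 2 of the CD8+ cells (0.082) or replicate 1 or 2 of the DN cells (0.188, 0.164).

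**Figure D4:**
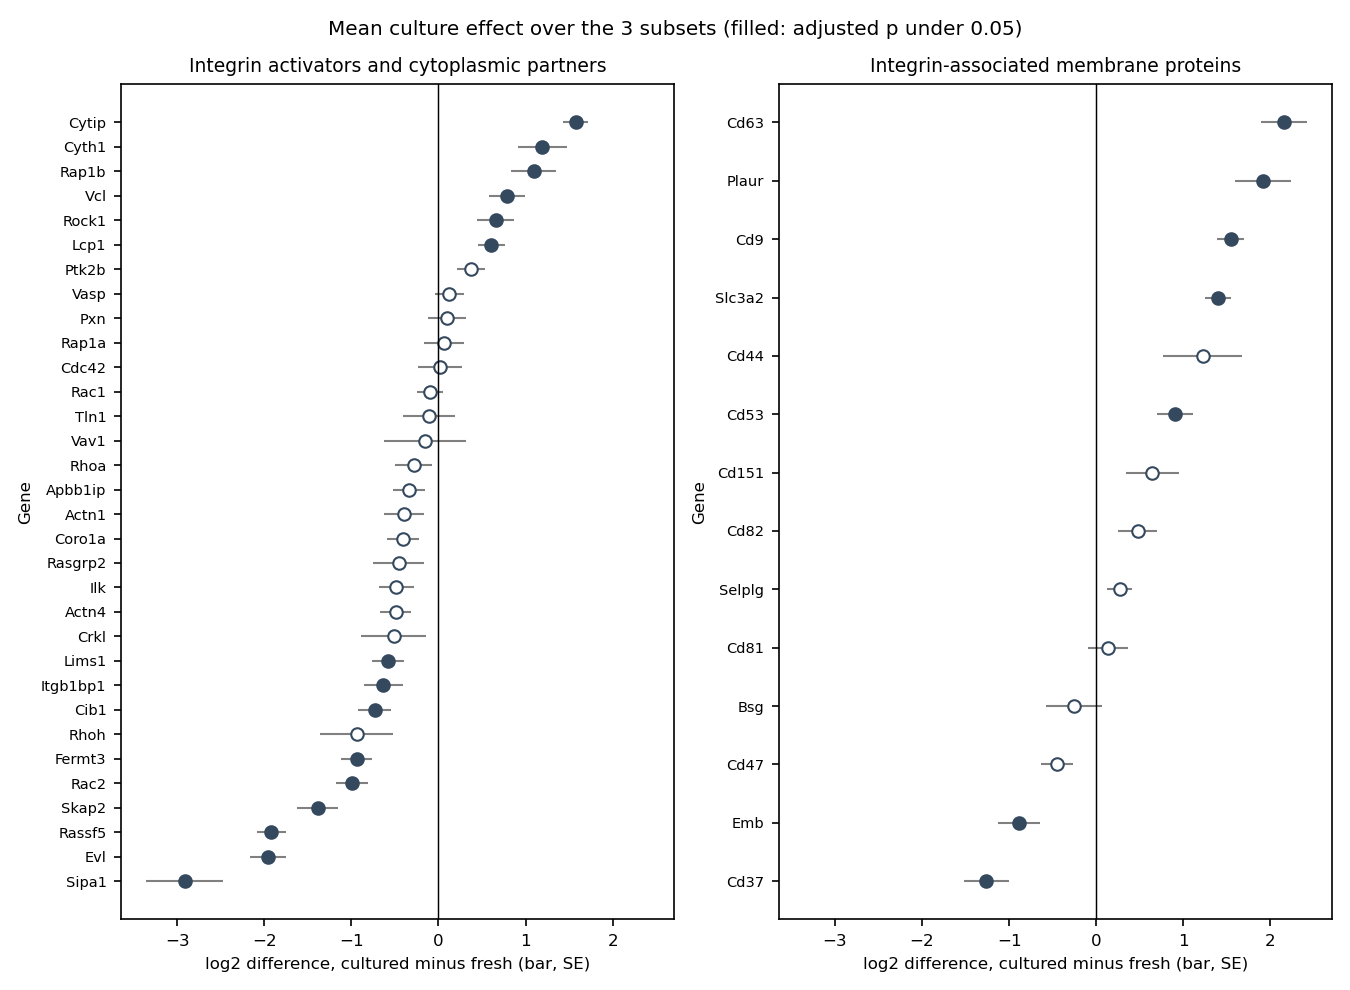
Mean log2 difference cultured minus fresh over the 3 subsets (horizontal axis, bars are standard errors), filled where the adjusted p was under 0.05. The vertical axis holds the tested genes of the lists of activators and cytoplasmic partners and of integrin-associated membrane proteins. Cytip, Cd9, Slc3a2 and Cd63 lie between 1.40 and 2.16, and Rassf5, Evl and Sipa1 between -1.92 and -2.91.

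The genes whose pattern over the 12 arrays was most like that of a member were read off as a description, by Pearson correlation on the log scale. Arrays of a group share their cells and state, so these values mostly follow the groups. For Itgav they were Lilr4b (0.983), Basp1 (0.980) and Ubxn4 (0.975). Itgae had Cenpv (0.937), Ppef2 (0.932) and Flt1 (0.926), which averaged 386.55, 109.85 and 209.65 in fresh CD8+ cells and 26.00, 3.95 and 22.60 in fresh CD4+ cells. Closest to Itgax were Slc7a7 (0.971), Pip4k2a (0.965) and Anks3 (0.957), the last with every group mean below the floor (36.75 to 87.05). Itgam had Tmem176b (0.920), Ptpn6 (0.918) and Slc44a2 (0.917), each highest in fresh CD4+ cells. Itgam and Itgae were above the floor on 2 arrays each and values below it have no order, so their correlations rest largely on those arrays. Itgb2 was followed by Herc1 (0.944), Naa60 (0.939) and Napsa (0.933), and Itgb7 by Cnn2 (0.957), Tubb5 (0.937) and the Tln1 probe set 99448_at (0.934).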

How the data were processed

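The 12 arrays (6 groups of 2) were grouped by the titles in the labels. The deposited intensities are Average Differences that the authors scaled globally, per the labels. The software is not given in the sources used here. No further normalization was made. A value x became log2((x + sqrt(x² + c²)) / 2), a generalised log2. Its offset c, 45.7, was set from the spread of values below 0 (their root mean square, median array). Of 12488 deposited probe sets, 66 controls were left out. Of the other 12422, 10833 had 1 gene symbol, 396 several and 1193 none. The Entrez identifiers of all 17 integrin probe sets led to the same symbol in the RefSeq table. 

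Limma 3.58.1 in R 4.3.3 fitted 1 mean per group over 12 arrays (6 residual degrees of freedom), with eBayes (trend, robust) and Benjamini-Hochberg adjustment over 6159 probe sets. The code was tested on simulated data. A group below the floor on both arrays has only a bound there, so "at least" sets the bright group's mean against the higher, per array, of the floor and the dim value. All integrin probe sets called or above the floor on 6 arrays were described in full, and up to 4 genes per list with the lowest adjusted p in any contrast were named. Emb, Itgb1bp1, Itga3, Itgb3, Tln1 and Adgre1 were named after their values were seen. The genes and lists were chosen with earlier results of these data known.

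The experiment number of the labels pairs arrays across groups: the differences between replicates correlated positively in 15 of 15 group pairs (r from 0.107 to 0.444), so a fit with the number as a block was an alternative. Others were the offset, the floor, quantile normalization, the filter, eBayes without trend, only the groups compared, leaving out each array and leaving out the 3 arrays of highest Gapdh ratio. Tables and figures used Python 3.11.15.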

Additional observations from a re-analysis of the deposited data

How the results depend on the processing

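Of the single integrin and partner results recomputed under the alternatives, 4894 kept their direction and their side of the threshold, 185 lost a call, 32 gained one and 0 reversed. These hold every integrin result, called or not, and the called results alone of the named partners. Most of the 4894 were thus never called and had no call to lose, and partner results could not gain one. The 4894 therefore do not measure how stable the calls were. Called integrin probe sets in fresh CD8+ against CD4+ cells were 2, and 0 with an offset of 0.5 times its value or with a filter of 6 arrays, which tested 11 integrin probe sets. In fresh CD8+ against DN cells 1 was called. It became 0 under the same 2 settings and 2 with an offset of 2 times its value, values set to the floor, quantile normalization, no filter, the replicate block, eBayes without trend or only the groups compared. Without the 3 arrays of highest Gapdh ratio, cultured CD8+ against CD4+ cells gave 1 in place of 0 and the culture effect in CD8+ cells 5 in place of 3, while the share of all probe sets went from 2.29% to 5.15% and from 8.13% to 16.1%. Fitting only the groups compared gave 2 in place of 4 for culture in CD4+ cells and 4 in place of 2 in DN cells, while the share of all probe sets went from 18.4% to 4.12% and from 9.9% to 19.1%. Leaving out 1 array gave 0 to 2 for each fresh CD8+ comparison, 2 to 7 for culture in CD4+, 1 to 4 in CD8+ and 2 to 3 in DN cells, 6 to 9 for the mean effect and 0 to 0 for the other 7 contrasts. The replicate block changed 3 member calls, all given above, and no other integrin call. Where 1 array was left to a group, it was assumed to vary like the other groups. Over all probe sets, fresh CD8+ against CD4+ gave 122 calls, 75 to 206 under the other settings and 26 to 202 with 1 array left out. Against DN it gave 88, with 59 to 155 and 8 to 123. Cultured CD8+ against CD4+ gave 141, with 20 to 317 and 28 to 551, and against DN 80, with 30 to 210 and 5 to 162. Culture gave 1133 in CD4+ cells, with 254 to 1786 and 306 to 2115, 501 in CD8+ cells, with 362 to 991 and 130 to 770, and 610 in DN cells, with 502 to 1178 and 90 to 966. Averaged over subsets it gave 2420, with 2000 to 2953 and 1699 to 3131. DN against CD4+ gave 0 when fresh, with 0 to 15 and 0 to 0, and 0 when cultured, with 0 to 3 and 0 to 199, the last without cultured CD4+ replicate 2. Values below the floor, which include all fresh Itgav values of 98366_at and all Itgae values outside CD8+ cells, have no order, and the arrays cannot show differences there.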
